A study of Mus musculus with 12 samples.

Results

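Among the circular RNAs (circRNAs) counted in the mouse thymus, 356 of 6300 carried a circBase identifier, and these are described here against the 5944 without one. circBase is a public collection of circRNAs found in earlier studies. The members were taken as the rows of the deposited circRNA table in which the identifier column names a circBase entry. The thymuses came from wild-type male C57BL/6 mice, an inbred strain, at 2 weeks (2W), 6 weeks (6W) and 3 months (3M), with 2 libraries at each age. The animals were kept on an ordinary diet with no treatment named, and the methods call the libraries of an age biological replicates without saying whether a library is 1 animal. The whole organ was sequenced, so that fewer cells of a type and less RNA per cell cannot be told apart.

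A circRNA forms when the spliceosome joins the downstream end of an exon to the upstream end of the same or an earlier exon, a reaction called back-splicing. The product is a closed ring without a cap or a tail, is degraded slowly, and is recognised in sequencing by reads that cross the back-spliced junction. Most circRNAs come from internal exons of protein-coding genes, called source genes here, and a gene can give several rings that share an end. The thymus is the organ in which T cells mature, and most of its cells are thymocytes.

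The sequence at a back-splice start can be shown for the members whose start lies in a RefSeq promoter window (GRCm38.p6, plus strand). In each line below, the 20 bases before the circRNA are followed by its first 10 bases, and the capitals mark the AG of the splice acceptor that borders the ring.
Arhgap5, chr12:52516059-52516088: gttttttttcccctttctAGgaagatgatc
Chd9, chr8:90932229-90932258: ttttgttgttattttcctAGgattctgatg
Cuedc1, chr11:88169545-88169574: gcctctgtccctcatttcAGgtgacaccgt
Fars2, chr13:36207607-36207636: aggcctttctgctctctcAGgattgcaccg
All 5 members with a readable start had this AG, since the Arhgap5 acceptor serves a pair of members, a single-exon ring of 3889 nt and an exon-joining ring of 4037 nt. Over all circRNAs that join annotated exons, 47 of 47 readable acceptors were AG and 13 of 13 readable donors were GT. The coordinates therefore fit GRCm38, although the submitters' processing notes list mm8, and positions below are given in GRCm38. Of the members, 350 have a source gene placed in RefSeq, and all 350 lie inside the span of that gene.

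The identifiers did not name single junctions. The 356 rows hold 296 distinct identifiers, of which 246 stand on 1 row, 42 on 2 rows, 6 on 3 rows and 2 on 4 rows. The study assigned identifiers by sequence alignment to circBase. The 110 rows that share an identifier form 72 pairs, all within 1 gene and all overlapping. In 32 pairs the start is the same, in 28 the end is the same, and in 12 neither is. The 3 rows of mm9_circ_001283 in Bub1b differ by at most 6 nt at the start and 3 nt at the end, and 487 of their 500 counts are on 1 row. By contrast, the 4 rows of mm9_circ_006933 in Cyld, which encodes a deubiquitinase, hold 4 to 6 counts each, and their ends lie up to 3816 nt apart. The largest row held a median of 70.9% of the counts of a shared identifier.

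All 356 members were on the plus strand. The circRNAs without an identifier were on both strands, with 2963 on the plus and 2981 on the minus strand. Members made up 10.7% of the plus-strand circRNAs, and 0 of the 2981 minus-strand circRNAs had an identifier, which allows a share of up to 0.101%. The plus-strand circRNAs without an identifier were therefore used as a further reference. Why the strands differ was not tested.

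The members came from 241 source genes, apart from 4 with none. RefSeq lists 238 of these genes as protein-coding and 1, Snhg11, as a long non-coding RNA, and 2 symbols were not found in it. A single member came from 169 genes and 3 or more from each of 20 genes. Zranb1, which encodes a deubiquitinase, gave 9 members and Crebrf, a regulator of CREB3, gave 6. Rabep1, which encodes an effector of the small GTPase Rab5 in endosome fusion, gave 5. Of the 4 members without a source gene, mm9_circ_011235 (chr15:62107148-62107465) lies inside Pvt1, a long non-coding RNA gene that RefSeq places at chr15:62037986-62260215. Its ring of 318 nt had 8 and 7 counts at 2W, 18 and 22 at 6W, with 13 and 9 at 3M. The other 3 lie within chr17:39844698-39845567, near the ribosomal RNA pseudogene Rn18s-rs5, and 2 of them are the shortest members, at 155 and 160 nt.

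Members were counted in more libraries than the other circRNAs. In 2W replicates 1 and 2, 67.1% and 66.6% of the members had at least 1 count, against 40.2% and 39.1% of the others. At 6W the shares were 80.6% and 81.5% against 53.2% and 56.6%, and at 3M they were 63.2% and 77.5% against 38.8% and 47.6%. The share was higher for members in 6 of 6 libraries, by 26.8 ± 2.01 percentage points (SD, n = 6, exact sign-flip permutation test, two-sided p = 0.0313, the smallest that 6 libraries can give). Against the plus-strand circRNAs alone the difference was 28.9 ± 2.38 points. In all 6 libraries 123 members (34.6%) were counted, compared with 691 (11.6%) of the others, and in a single library 21 members (5.90%), compared with 2103 (35.4%).

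**Figure D1:**
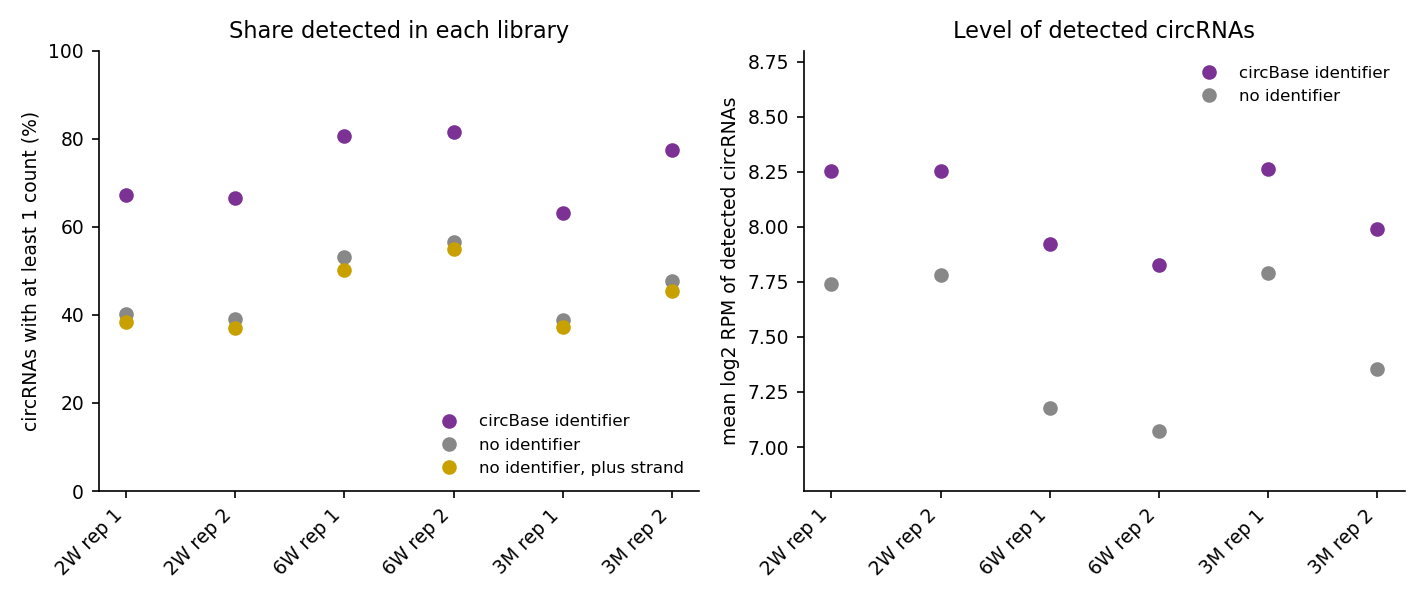
Share of circRNAs with at least 1 count (left, percent) and mean log2 RPM of the detected circRNAs (right) in each of the 6 libraries, by whether the circRNA has a circBase identifier. Each point is 1 library, and the members lie above the others in every library, with 63.2% to 81.5% detected against 38.8% to 56.6%.

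Detected members were also more abundant. RPM is the junction count per 1000000 junction counts of the library, and 1 count is worth 45.6 to 93.8 RPM. The mean log2 RPM of detected members was 8.25 in both 2W libraries, 7.92 and 7.83 at 6W, with 8.26 and 7.99 at 3M. For the other circRNAs it was 7.74 and 7.78, 7.18 and 7.07, and 7.79 and 7.36. The difference was 0.60 ± 0.13 on the log2 scale (SD, n = 6, higher in 6 of 6 libraries, exact sign-flip permutation test, two-sided p = 0.0313). Over all listed circRNAs, with 0 counts included and a pseudocount of 10 RPM, the difference was 1.57 ± 0.11. Among detected circRNAs it was 0.70 ± 0.14 against the plus-strand circRNAs alone and 0.51 ± 0.12 among exon-joining circRNAs of both strands. With only the most counted circRNA of each source gene it was 0.75 ± 0.18. Summed over the libraries, a member had a median of 13 counts (quartiles 6 and 28.25) and another circRNA a median of 4 (quartiles 3 and 9).

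The share of plus-strand circRNAs with an identifier was larger at higher counts. It was 3.65% among those with 1 to 5 counts, 14.4% at 6 to 15, 25.4% at 16 to 50, and 43.8% at 51 or more, where 56 members stand beside 72 others. This is a description over circRNAs of the same libraries, without a test. In 140 source genes with both kinds of plus-strand exonic ring, the most counted ring was a member in 99 (70.7%). Of the 415 plus-strand exonic circRNAs without an identifier in the members' genes, 150 (36.1%) shared a start or an end with a member. The mRNA level of the members' genes was close to that of other source genes. Their median FPKM (fragments per kilobase and 1000000 fragments, mean of 6 libraries) was 19.6, compared with 20.9 for 1098 genes that gave only other plus-strand exonic circRNAs.

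Members joined annotated exons in 291 cases (81.7%), compared with 68.0% of the other circRNAs and 67.6% of those on the plus strand. Among circRNAs with 6 or more counts the shares were 83.7% and 78.4%, and at 51 or more counts 71.4% of the members and 73.6% of the others on the plus strand joined exons. A further 40 (11.2%) were made of a single exon, compared with 7.96% of the others, and 21 (5.90%) mixed exon and intron, compared with 6.06%. No member was intronic or antisense, whereas 442 and 416 of the others were. In spliced length, the number of bases in the ring, members had a median of 522.5 nt (quartiles 362 and 876.5) and the others 546.5 nt (quartiles 354 and 1010). The order of the medians turned with the count class: on the plus strand, members were longer at 1 to 5 counts (579.5 against 537 nt) and at 51 or more (630.5 against 573 nt), and shorter at 6 to 15 (498 against 530 nt) and at 16 to 50 (496 against 536 nt). Rings over 2000 nt were 7.02% of the members and 11% of the others. The genomic span between the junction ends was longer, with medians of 7273.5 and 4601.5 nt. Among exon-joining circRNAs on the plus strand these medians were 8911 nt for members and 7050 nt for the others.

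Lengths by class are given as a description without a test. The 40 single-exon members had a median of 733 nt (quartiles 505 and 1165.75), compared with 306.5 nt (quartiles 213.5 and 536.25) for 228 others on the plus strand. Exon-joining members had a median of 494 nt compared with 541 nt. In the exon and intron class the order was the same as for exon-joining rings, with 1946 nt for members and 3137 nt for the others. The longest members were in Fars2 (24787 nt), which encodes the mitochondrial phenylalanyl-tRNA synthetase, in Arid1b (13038 nt), a subunit of the BAF chromatin remodeller, and in Sipa1l1 (6398 nt). All 3 are of the exon and intron class, with 6, 3 and 13 counts. The shortest with a source gene was an exon-joining ring of 169 nt in Med13l, a subunit of the Mediator kinase module.

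**Figure D2:**
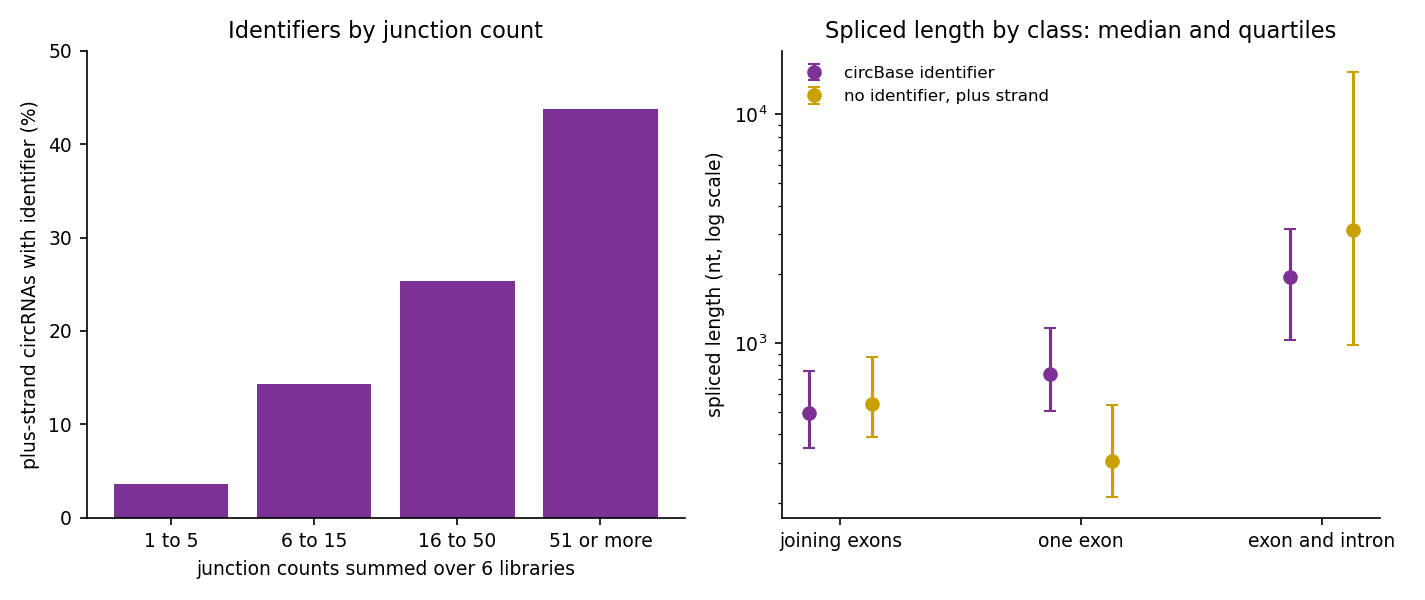
Left: percent of plus-strand circRNAs with a circBase identifier, by junction counts summed over the 6 libraries (bars, from 3.65% to 43.8%). Right: median spliced length with its quartiles (points and error bars, log scale in nt) by annotation class, where single-exon members are longer than the others (733 against 306.5 nt), the reverse of the exon-joining class (494 against 541 nt).

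A few members carried a large part of the counts. The 12 most counted held 33.6% to 42.1% of all member counts in a library. First was mm9_circ_009705 in Mettl9, a histidine methyltransferase (chr7:121047838-121057399, 586 nt), with 1010 counts. Its level was 8253 and 13763 RPM at 2W, 11953 and 10496 at 6W, with 12584 and 11367 at 3M, so that the ages overlapped. The next was mm9_circ_003195 in Nsd2, a histone methyltransferase (chr5:33843112-33846267, 789 nt), with 941 counts. It had 8628 and 10974 RPM at 2W, 10139 and 9081 at 6W, with 14562 and 11432 at 3M. The 3M libraries of Nsd2 lay above the other 4, and the log2 fold change of 3M against 2W was 0.46 (SE 0.26, edgeR adjusted p = 0.82).

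The third was mm9_circ_008009 in Tulp4, a member of the tubby-like protein family (chr17:6137211-6139156, 1946 nt, exon and intron), with 737 counts. Its level was 5627 and 6027 RPM at 2W, 7577 and 8123 at 6W, with 11596 and 10457 at 3M, and no ages overlapped. The log2 fold change of 3M against 2W was 0.98 (SE 0.27, edgeR adjusted p = 0.25), just short of 1, the limit used below with an unadjusted p under 0.05 and called the study threshold. Lrch3, with 376 counts, had 2532 and 3508 RPM at 2W, 5229 and 3377 at 6W, with 5573 and 4936 at 3M, and the log2 fold change of 3M against 2W was 0.86 (SE 0.32, edgeR adjusted p = 0.82). The most counted ring of Crebrf (274 counts) and those of Pwwp2a, which binds nucleosomes with the histone variant H2A.Z (268), Fam160b1 (238) and Mkln1, a subunit of the CTLH ubiquitin ligase (155), were past the study threshold in none of the comparisons. The same was true of the ring of Stx6, a SNARE protein of the trans-Golgi network (205 counts). Bub1b, Rere and Paip2, which complete the 12, are described with the age comparisons.

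**Figure D3:**
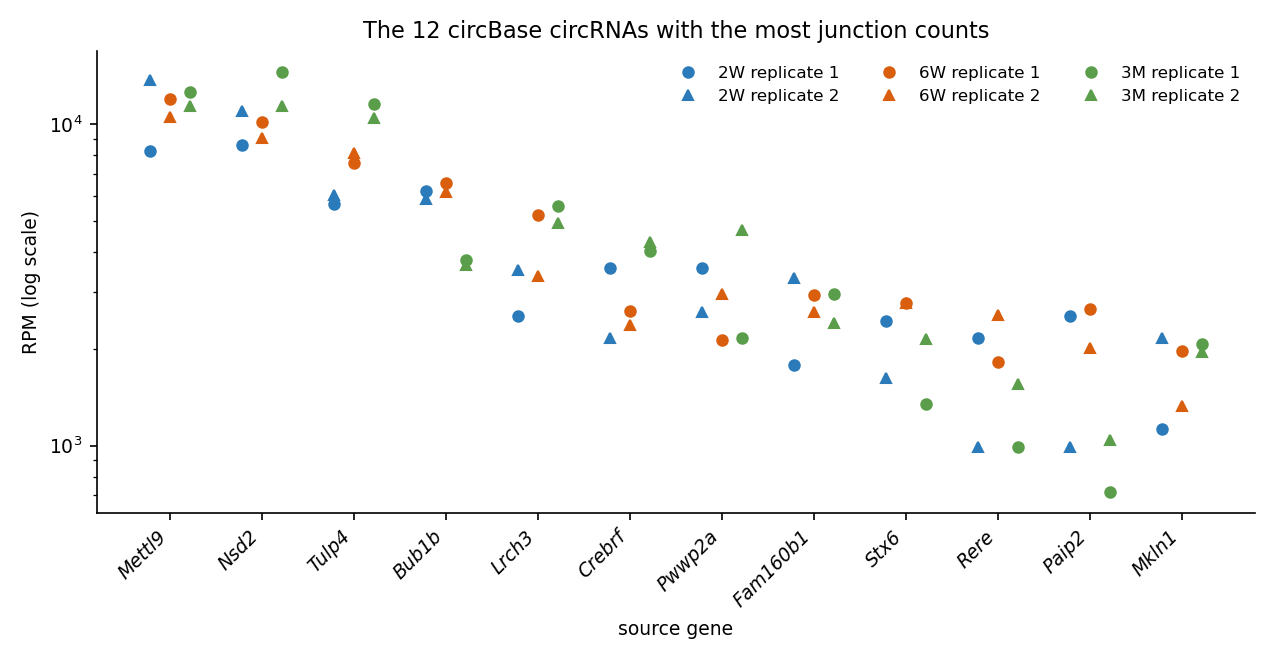
RPM on a log axis of the 12 members with the most junction counts, named by source gene, in each library (colours for age, symbols for replicate). Mettl9 and Nsd2 are the highest, and Bub1b and Paip2 have their lowest mean at 3M.

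As a group, the members took a similar part of the junction counts in each library. Their share was 14.4% and 14.6% at 2W, 15.8% and 15% at 6W, and 14.8% and 15.3% at 3M. The differences were 0.89 percentage points for 6W against 2W, -0.35 for 3M against 6W and 0.54 for 3M against 2W. The exact two-sided permutation p was 0.333, 0.667 and 0.333, where 0.333 is the smallest that 2 libraries against 2 can give. Without 1 library the 6W against 2W difference ran from 0.461 to 1.317 points, both ends set by leaving out a 6W library. The 3M against 6W difference ran from -0.782 to 0.075 points, with the change of sign when 6W replicate 1 was left out, and that of 3M against 2W from 0.302 to 0.769.

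To follow single members over the ages, the 288 with at least 6 summed counts were tested together with all other circRNAs, 2779 in all. The other 68 members had fewer counts and were not tested. A member counted as past the study threshold where p, unadjusted, was under 0.05 and the log2 fold change exceeded 1 in size. At 6W against 2W, 17 of 288 members (5.90%) were past it, 14 higher and 3 lower at 6W, and the share over all tested circRNAs was 4.03% (3.13% higher and 0.9% lower). At 3M against 6W, 16 (5.56%) were past it, 1 higher and 15 lower at 3M, and the share over all was 4.5% (1.3% higher and 3.2% lower). At 3M against 2W, 19 (6.60%) were past it, 9 higher and 10 lower, and the share over all was 3.92% (2.05% higher and 1.87% lower). Tested members had a median of 17 counts and other tested circRNAs 11, and the part of this in the shares was not tested. In all, 37 members passed in at least 1 comparison, 15 of them in 2. The same was not counted over all tested circRNAs, so that these numbers have no share to be read against.

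The sizes and the split of directions depended on the scaling. The median log2 fold change over all tested circRNAs was 0.36 at 6W against 2W and -0.33 at 3M against 6W after TMM scaling, which lay 0.30 above and 0.24 below the medians under scaling by total counts alone (for members, 0.41 and -0.31 after TMM). With total counts, 9 members were higher and 5 lower at 6W against 2W, and 1 was higher and 8 lower at 3M against 6W. These are 4.86% and 3.12% of the tested members, and 4.14% and 4.07% of all tested circRNAs were past the threshold. At 3M against 6W the members' share was then the lower. It was also the lower there with only the 4 libraries compared (3.82% against 4.82%), with filterByExpr (5.77% against 6.4%) and without either 2W library. In the other alternatives it was the higher. Without 6W replicate 1, 10 members (3.47%) were past the threshold at 6W against 2W, with 2.37% over all. After Benjamini-Hochberg adjustment over all tested circRNAs, edgeR called 2 members at 3M against 6W, while 0.288% of all tested circRNAs were called. It called 0 members at 6W against 2W and at 3M against 2W, where 0% and 0.036% of all were called. In each of these, 22 members (7.64%) had an unadjusted p under 0.05, and 4.61% and 4.32% of all did. DESeq2 called 0 members in all comparisons.

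**Figure D4:**
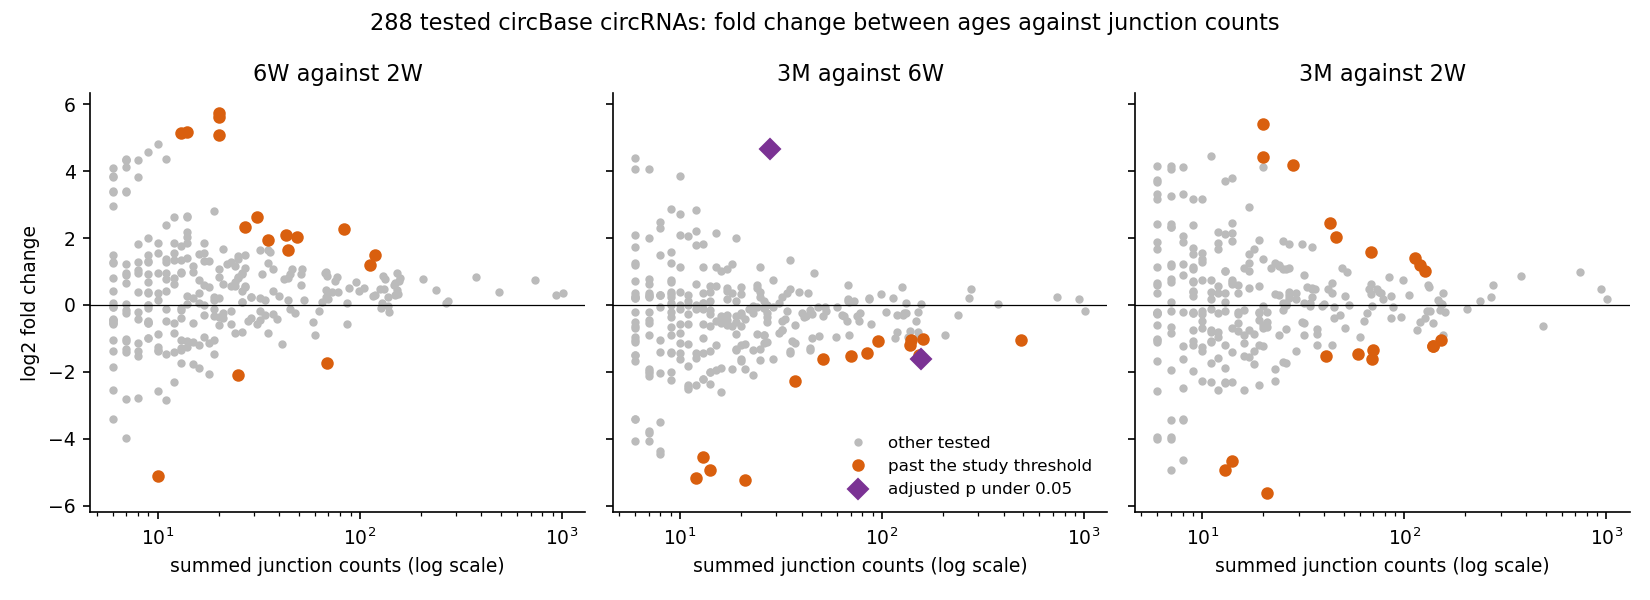
Fitted log2 fold change of the 288 tested members (vertical axis) against their summed junction counts (log scale) in the 3 comparisons of ages. Orange points are past the study threshold (17, 16 and 19 members) and purple diamonds, Snhg11 and Paip2 at 3M against 6W, have an adjusted p under 0.05; extreme values at low counts belong to members with 0 or few counts in an age and depend on the prior count.

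The first of the called members was mm9_circ_017587 in Snhg11, the host gene of small nucleolar RNAs (chr2:158382504-158383163, a single-exon ring of 660 nt). It had 1 and 0 counts at 2W, 0 and 1 at 6W, with 8 and 18 at 3M. In RPM these are 93.8 and 0, 0 and 45.6, and 719 and 1169. Both 3M libraries lay far above the other 4. The TMM-scaled ratio of 3M to 6W was 33.4, with a 95% counting interval of 5.49 to 1371, since the 6W libraries hold only 1 count. The fitted log2 fold change was 4.67 (SE 1.17, edgeR adjusted p = 0.037). The adjusted p was 1 without 6W replicate 1, 0.83 without 6W replicate 2, 0.099 without 3M replicate 1 and 0.74 without 3M replicate 2, and the direction stayed. The fitted value was 2.68 with a prior count of 2 and 6.655 without 6W replicate 2, so that its size is not well set. The Snhg11 RNA had 6.45 and 5.21 CPM (counts per 1000000, TMM-scaled) at 2W, 4.56 and 2.96 at 6W, with 18.9 and 7.61 at 3M, so that both 3M libraries were again the highest. The log2 fold change of this RNA at 3M against 6W was 1.82 (SE 0.45, edgeR adjusted p = 0.23). Its reads can include the exon of the ring, so that the measures are not fully separate.

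The other was mm9_circ_015464 in Paip2, which binds the poly(A)-binding protein and represses translation (chr18:35610871-35613502, 344 nt, joining exons). It had 27 and 11 counts at 2W, 50 and 44 at 6W, with 8 and 16 at 3M. In RPM these are 2532 and 989, 2668 and 2008, and 719 and 1039. The 3M libraries lay below both 6W libraries, while a 2W library overlapped them. The circRNA fell from 3045 ± 606 CPM at 6W to 962 ± 293 at 3M (SD, n = 2 each), a log2 fold change of -1.62 (SE 0.42, edgeR adjusted p = 0.040), or -1.29 relative to the median of all tested circRNAs. The adjusted p was 0.069 without 2W replicate 1, 1 without 6W replicate 1, 0.38 without 6W replicate 2, 0.99 without 3M replicate 1 and 0.19 without 3M replicate 2. When libraries were scaled by total counts alone it was 0.33, at a log2 fold change of -1.36. The Paip2 mRNA had a log2 fold change of -0.05 (SE 0.17, edgeR adjusted p = 0.92) between the same ages.

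Among members past the study threshold at 3M against 6W without an adjusted p under 0.05, the most counted was mm9_circ_001283 in Bub1b, the spindle checkpoint kinase BubR1 (chr2:118631759-118635277, 392 nt). Its level was 6190 and 5847 RPM at 2W, 6564 and 6160 at 6W, with 3775 and 3637 at 3M, with both 3M libraries below the other 4. The log2 fold change was -1.04 (SE 0.29, edgeR adjusted p = 0.11), and it was -0.93, -0.96 and -0.99, short of the limit of 1, without 2W replicate 1, 2W replicate 2 and 6W replicate 1, and -0.77 when scaled by total counts alone. Bub1b mRNA had a log2 fold change of -0.24 (SE 0.11, edgeR adjusted p = 0.39). The ring of Pan3, a subunit of the deadenylase that shortens poly(A) tails (260 nt), had 2063 and 1799 RPM at 2W, 2134 and 2099 at 6W, with 629 and 1104 at 3M. Its log2 fold change of 3M against 6W was -1.49 (SE 0.42, edgeR adjusted p = 0.11), and it stayed past the study threshold under each of 14 alternatives. At 3M against 2W it was -1.04, and -0.92 without 2W replicate 1 and -0.69 without 3M replicate 1.

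The members described next were past the threshold in a comparison with 3M and had their lowest values there. Of the 19 past it at 3M against 2W, 9 were higher at 3M. The single-exon ring of Tut4, a terminal uridylyltransferase, had 1782 and 2789 RPM at 2W, 1387 and 1780 at 6W, with 1348 and 585 at 3M. At 3M against 2W its log2 fold change was -1.23 (SE 0.45, edgeR adjusted p = 0.82), and -0.91 without 2W replicate 2 and -0.74 without 3M replicate 2. At 3M against 6W it was -1.03, and it was short of the threshold without either 2W library (-0.93 and -0.96), without 6W replicate 2 (-0.83) and without 3M replicate 2 (-0.55), and -0.76 when scaled by total counts alone. The most counted ring of Zranb1 had 1782 and 2519 RPM at 2W, 1761 and 1597 at 6W, with 809 and 909 at 3M, and no 3M library overlapped another age. Its log2 fold change at 3M against 2W was -1.24 (SE 0.46, edgeR adjusted p = 0.82), and -0.996, short of the threshold, without 2W replicate 2. At 3M against 6W it was -1.20 (edgeR adjusted p = 0.60), also past the threshold, and -0.94 when scaled by total counts alone. The ring of Wapl, which releases cohesin from chromosomes, had 1313 and 720 RPM at 2W, 747 and 1095 at 6W, with 360 and 390 at 3M. At 3M against 6W its log2 fold change was -1.53 (SE 0.62, edgeR adjusted p = 0.84), and -1.22 without 6W replicate 2, past the threshold no more. At 3M against 2W it was -1.34, and it was not past the threshold without 2W replicate 1, either 6W library or either 3M library. In Cntln, a centrosomal protein, the 2W libraries had 4 and 6 counts and the 6W libraries 7 and 4, and both 3M libraries had 0. In RPM, against a floor of 3 counts in the smaller 3M library, the Cntln ring was at least 1.70-fold lower at 3M than at 2W and at least 1.03-fold lower than at 6W, where 1 library lay below that floor. The comparison with 6W was short of the study threshold without 6W replicate 1.

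**Figure D5:**
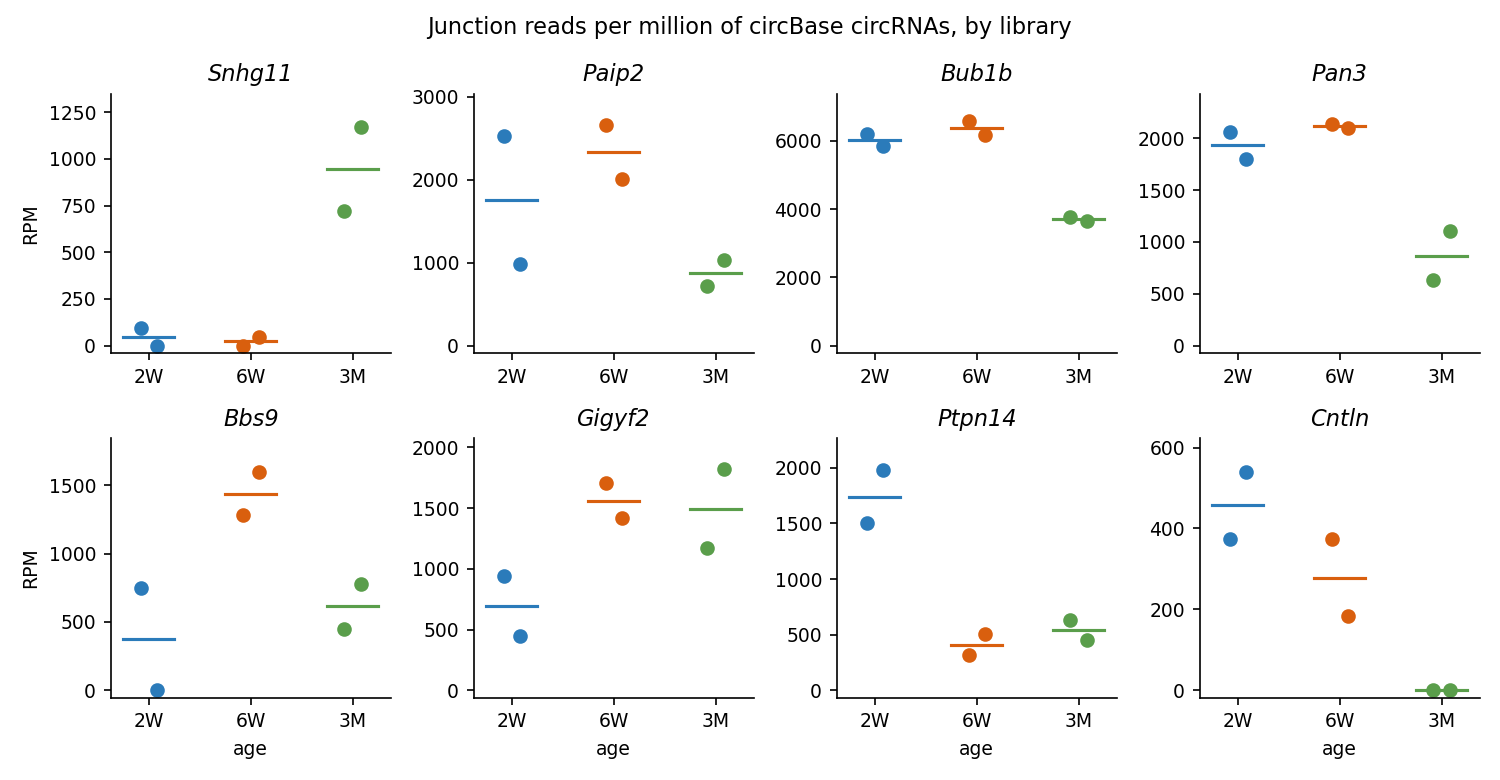
RPM of the members in Snhg11, Paip2, Bub1b, Pan3, Bbs9, Gigyf2, Ptpn14 and Cntln at 2W, 6W and 3M. Points are libraries, 2 at each age, and lines are the mean of the age; Snhg11 is high only at 3M, Ptpn14 is highest at 2W, and the Cntln ring has no count at 3M.

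At 6W against 2W the member with the smallest p was in Bbs9, a subunit of the BBSome of cilia (243 nt), without an adjusted p under 0.05. The ring had 8 and 0 counts at 2W, 24 and 35 at 6W, with 5 and 12 at 3M, which is highest at 6W. Its log2 fold change was 2.26 at 6W against 2W (SE 0.60, edgeR adjusted p = 0.16) and -1.43 at 3M against 6W (SE 0.53, edgeR adjusted p = 0.60). Without 2W replicate 2, the library at 0, the former was 1.16 and no longer past the threshold. The latter was -1.26 without 6W replicate 2 and -1.09 without 3M replicate 1, neither past it. The ring of Gigyf2, a translational repressor (494 nt), had 938 and 450 RPM at 2W, 1708 and 1415 at 6W, with 1169 and 1819 at 3M. Its log2 fold change at 6W against 2W was 1.48 (SE 0.49, edgeR adjusted p = 0.62), and 0.94 without 2W replicate 2. At 3M against 2W it was 1.20 (edgeR adjusted p = 0.82), also past the threshold. It was 0.74 there without 2W replicate 2 and 0.76 without 3M replicate 2. Zfp516, a zinc-finger transcription factor, and Tank, an adaptor of TRAF signalling, had no count at 2W. At 6W the Zfp516 ring had 9 and 7 counts and the Tank ring 4 and 11. In RPM these were at least 1.42-fold and at least 1.27-fold higher than the floor at 2W. For Tank this rests on the 6W mean, as 6W replicate 1 lay below that floor. Tank was short of the threshold without 6W replicate 2.

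In the other direction, the ring of Ptpn14, a tyrosine phosphatase (chr1:189786636-189798681, 483 nt), had 1501 and 1979 RPM at 2W, 320 and 502 at 6W, with 629 and 455 at 3M. Both 2W libraries lay above the other 4. The log2 fold change was -1.72 at 6W against 2W (SE 0.55, edgeR adjusted p = 0.57) and -1.63 at 3M against 2W (SE 0.57, edgeR adjusted p = 0.81), and both were past the study threshold under each of 14 alternatives. Ptpn14 mRNA had 253 and 266 CPM at 2W, 125 and 118 at 6W, with 131 and 142 at 3M. It fell by 1.09 on the log2 scale from 2W to 6W (SE 0.11, edgeR adjusted p = 0.023) and by 0.93 from 2W to 3M (SE 0.11, edgeR adjusted p = 0.0072). The call from 2W to 6W was lost without either 2W and without either 6W library. The mRNA reads can include exons of the ring, so that the measures are not fully separate.

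The other members past the threshold and lower at 6W than at 2W had few counts. The ring of mm9_circ_012199 in Eri3 (621 nt) had 2 and 5 counts at 2W, none at 6W, and 3 and 0 at 3M. In RPM it was at least 1.99-fold lower at 6W than at 2W, and it was short of the threshold without 2W replicate 2 and without either 6W library. A further ring of mm9_circ_005606 in Zranb1 (1039 nt) had 2 and 13 counts at 2W, 1 and 4 at 6W, with 3 and 2 at 3M. At 6W against 2W the log2 fold change was -2.09 (SE 0.996, edgeR adjusted p = 0.87), and it was -0.39 without 2W replicate 2 and -1.52 without 6W replicate 1, neither past the threshold. In contrast, the single-exon ring of Ric8b, a chaperone of G protein alpha subunits (609 nt), had its lowest counts at 2W, with 3 and 0, and had 13 and 7 at 6W and 10 and 10 at 3M. The TMM-scaled ratio of 3M to 2W was 5.75 (95% counting interval 1.71 to 30.2) and that of 6W to 2W was 4.47 (1.33 to 23.5). Both were short of the threshold without 2W replicate 2. The comparison of 6W with 2W was also short of it without 6W replicate 1, with total counts as the only scaling and with DESeq2.

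Rings of 1 gene could follow different courses in these counts. In Crebrf, the 3 rows of mm9_circ_004122 end at the same base. The row with 274 counts had 3564 and 2159 RPM at 2W, 2615 and 2373 at 6W, with 4045 and 4287 at 3M. The row with 113 counts had 844 and 540, 1067 and 1460, and 1888 and 1624, and its log2 fold change at 3M against 2W was 1.39 (SE 0.51, edgeR adjusted p = 0.82), and 1.08, short of the threshold, without 2W replicate 2. The row with 49 counts had 375 and 89.95, 1014 and 548, and 360 and 585 RPM, highest on average at 6W. At 6W against 2W the log2 fold changes of the rows with 113 and 49 counts were 1.19 and 2.02 (edgeR adjusted p = 0.87 for both). Both were past the threshold there, and stayed past it under 9 of 14 and 10 of 13 alternatives. In Rere, a transcriptional coregulator, the single-exon ring with 159 counts had 2157 and 989 RPM at 2W, 1814 and 2555 at 6W, with 989 and 1559 at 3M. Its log2 fold change at 3M against 6W was -1.002 (SE 0.40, edgeR adjusted p = 0.84), at the very limit, and it was -0.70 without 3M replicate 1, -0.73 without 6W replicate 2, and -0.89 and -0.93 without 2W replicates 1 and 2. An exon-joining ring farther downstream (mm9_circ_017369) had 0 and 0 counts at 2W, 5 and 5 at 6W, with 4 and 6 at 3M, in RPM at least 1.33-fold higher at 3M than the floor at 2W. Differences between rings of a gene were not tested.

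The lists of source genes by role were drawn up by hand and are not complete, so that counts and shares below hold for the listed genes only. Bub1b, Zranb1, Cyld and Mkln1 are on none of them. Chromatin regulators gave 24 members from 13 genes (6.74% of members), and 4.07% of the 2405 exonic plus-strand circRNAs without an identifier came from this list. Of its 20 tested members, 0 were past the threshold at 6W against 2W, and 1 was lower in each of the other comparisons. Nsd2 led it, followed by Kat6b, a histone acetyltransferase (153 counts), and the histone methyltransferases Ash1l (127) and Nsd1 (88). The single-exon ring of Kat6b had 17 and 13 counts at 2W, 44 and 43 at 6W, with 12 and 24 at 3M, and was within the limits of the threshold in each comparison. The median log2 fold change of the list was 0.28, -0.24 and -0.02 at 6W against 2W, 3M against 6W and 3M against 2W, beside 0.36, -0.33 and 0.00 for all tested circRNAs.

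RNA-binding and RNA-processing genes gave 14 members (3.93%, against 3.66% of the reference), of which 12 were tested. The ring of Pan3 was past the threshold, lower at 3M, in both comparisons with 3M. The medians of the list were 0.57, 0.02 and 0.05. Another member of the list, in the nuclear exporter Xpo1, had 16 counts in all. The listed genes of DNA replication, repair and mitosis gave 6 members (1.69%, against 2.79%), with medians of 0.19, -0.50 and -0.25. The ring of Wapl was past the threshold in both comparisons with 3M, whereas those of Clasp1, Stag2 and Ckap5, with 31, 27 and 19 counts, were not past the threshold.

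The listed genes of the ubiquitin system gave 6 members (1.69%, against 2.25%), with 1 past the threshold at 6W against 2W and 0 in both comparisons with 3M. The medians of the 6 were 0.06, -1.50 and -0.84, beside 0.36, -0.33 and 0.00 for all tested circRNAs. The most counted of these 6 was in the conjugating enzyme gene Ube2k, with 22 and 11 counts at 2W, 23 and 37 at 6W, with 11 and 12 at 3M. The ring of the ligase gene Huwe1 had 1 and 1 counts at 2W, 8 and 8 at 6W, with 2 and 7 at 3M, a TMM-scaled ratio of 5.37 at 6W to 2W (95% counting interval 1.26 to 48.1). It was past the threshold at 6W against 2W, and short of it in each fit that left out a 2W or a 6W library. It was also short of it with total counts as the only scaling, DESeq2, no filter, a replicate block or plus-strand circRNAs only. It stayed past the threshold under 4 of 13 alternatives. Those of Herc2 and Birc6 had 14 and 12 counts. Genes of thymocyte identity and signalling gave 1 member, in the transcription factor Nfatc3, with 3 counts, while 65 exonic plus-strand circRNAs without an identifier (2.70%) came from 14 genes of that list. This ring was below the count limit and was not tested.

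The mRNA of the 241 source genes was tested in the same libraries, together with all 14805 genes with enough reads. At 3M against 2W, 12 source genes (4.98%) had an edgeR adjusted p under 0.05, and 11% of all tested genes did. The difference between the shares was not tested. By direction, 6 source genes (2.49%) were higher and 6 lower, and of all genes 7.91% and 3.1%. Dcbld2, Lrrk2, Man2a1, Pard3, Tmem26 and Vav3 rose, and Ano6, Ckap5, Cntln, Kat6b, Ptpn14 and Tpr fell. The count was 2 to 3 without either 2W or either 6W library and 19 without 3M replicate 1. At 6W against 2W, Ano6, a phospholipid scramblase, and Ptpn14 fell (0.83% of the source genes, while 1.74% of all genes were called and 0.263% were lower), and the count was 0 without either 2W or either 6W library and 4 without either 3M library. At 3M against 6W 0 source genes were called by edgeR and 0.00675% of all, and 32 (13.3%) had an unadjusted p under 0.05, as did 14.3% of all. Of the members past the study threshold, 9 of 17, 11 of 16 and 13 of 19 had the sign of their source gene's change at 6W against 2W, 3M against 6W and 3M against 2W. Over all 286 tested members with a source gene the shares were 43%, 54.2% and 56.6%, and the difference from these was not tested. Cntln and Ptpn14 are the members past the threshold whose gene fell too with an edgeR adjusted p under 0.05. For both this was at 3M against 2W, and for Ptpn14 also at 6W against 2W.

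A pair of exon-joining members in R3hdm1 (mm9_circ_017561) spans the hairpin of Mir128-1, which lies 8901 nt downstream of their shared start. Their rings have 832 and 1005 nt. The mature miRNA is shown because its hairpin lies within the genomic span of these members, with its seed (bases 2 to 8) in capitals, as RefSeq gives it.
mmu-miR-128-3p: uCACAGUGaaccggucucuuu
In the small RNA libraries of the same ages, its level was 22978 and 19265 TPM (tags per 1000000) at 2W, 20196 and 16764 at 6W, with 9429 and 13613 at 3M. The same mature miRNA can also come from another hairpin. The R3hdm1 rings had 12 and 25 counts over the 6 libraries.

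The libraries held 10663 to 21914 junction counts, with the most at 6W, so that a circRNA at 0 can be present at up to 137 to 281 RPM (3 counts). These limits and the intervals cover counting error only, as the reads carry no molecular identifiers. Rag1, a defining gene of immature thymocytes, was at 1075 to 1510 FPKM in all libraries. Of 10 genes of double-positive thymocytes, 6 fell from 2W to 3M (edgeR adjusted p under 0.05), and their summed level was 12479 to 12488 CPM at 3M and 15693 to 17352 CPM at 2W. Of 8 adipocyte genes, 3 rose from 2W to 6W and 5 from 2W to 3M (79.5 to 102 CPM in sum at 2W, 223 to 225 at 6W, 245 to 501 at 3M), and of 8 myeloid genes, 2 and 4 rose. The summed red blood cell genes were at 2167 CPM in 3M replicate 2 and at 402 to 816 CPM in the other libraries. The part of these cell types in the courses of the members was not tested.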

How the data were processed

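Total RNA without ribosomal RNA was sequenced, and the authors deposited whole back-spliced junction counts per circRNA and their RPM, estimated counts and FPKM per transcript from the same libraries, and miRNA tag counts with TPM from small RNA. The authors matched circRNAs to circBase by sequence. The submitters' processing notes name Bowtie 0.12.2 and mm8, and the junction caller is not given in the sources used here. Libraries held 10663 to 21914 junction counts.

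Samples were grouped by the labelled age. Junction counts of all circRNAs with at least 6 summed counts were fitted over the 6 libraries with edgeR 4.0.16 (TMM, quasi-likelihood test, age as the only term) in R 4.3.3, with Benjamini-Hochberg adjustment over all 2779. P-values measure the spread between these libraries. Estimated counts were rounded and summed by gene symbol, ignoring case, and filtered with filterByExpr. Shares and mean log2 RPM were compared by exact permutation in Python 3.11.15. On simulated counts for 6W against 2W, 44.4% of 169 tested circRNAs with a 4-fold change, and 3.72% of the unchanged ones, passed the study threshold.

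The members and lists were chosen with earlier results of these data known. A rule to add the circRNAs named in the paper was not applied, as its mmu_circ names match no identifier here. By mean RPM per age, the members in Snhg11, Paip2, Ptpn14, Zfp516 and Tank match circRNAs that the paper tabulates from the same libraries. Named members are the 12 most counted, those with an adjusted p under 0.05, up to 4 per comparison and direction with the smallest p and no overlap, the 3 longest and shortest, genes with 3 or more, and up to 4 per list; members outside these were named after their values were seen. Alternatives were other scalings, filters and prior counts, DESeq2 1.42.0, a replicate block, and leaving out each library; the references on the plus strand were added after the data were seen. A withheld item is not reported here.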

Additional observations from a re-analysis of the deposited data

How the results depend on the processing

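Depth limits the tests, since 68 of 356 members were under the count limit. Leaving out a library leaves 1 at its age, whose spread is taken from the others. The higher detection and abundance of members kept their direction in every alternative run. Without 1 library these differences were 26.216 to 27.324 percentage points and 0.567 to 0.624 on the log2 scale, at p = 0.0625, the smallest an exact permutation of 5 libraries gives. The difference in the members' share of counts, 6W minus 2W, was 0.461 to 1.317 points. The difference in median length, -24 nt, was -40 nt at 6 or more counts, -55 nt among exon-joining circRNAs and -13.5 nt against the plus strand, the last chosen after seeing the data. The members past the study threshold at 6W against 2W, 3M against 6W and 3M against 2W numbered 6, 4 and 11 with DESeq2 (0.9%, 1.01% and 1.48% of all circRNAs passed) and 3, 3 and 8 of only 52 tested with filterByExpr (6%, 6.4% and 10.4% of all), and 10 to 24, 11 to 23 and 14 to 28 without 1 library. At 3M against 6W they numbered 9 with total counts as the only scaling (3.12% of the tested members against 4.07% of all circRNAs). At 3M against 6W the members' share was also below that of all circRNAs without either 2W library. In every other fit without 1 library, over the 3 comparisons, the members' share was the higher. The 2 members with an adjusted p under 0.05 at 3M against 6W became 1 with total counts, no filter, only the 4 libraries compared or plus-strand circRNAs only, 0 with DESeq2 or filterByExpr, and 0 to 2 without 1 library. At 6W against 2W, 0 to 1 passed without 1 library, the 1 being Bbs9 without 2W replicate 1. The source genes with changed mRNA, 2 at 6W against 2W and 12 at 3M against 2W, numbered 1 and 15 with total counts, 1 and 10 with exact symbols, and 0 to 4 and 2 to 19 without 1 library. Replicate numbers did not pair the libraries, as deviations of same-numbered libraries correlated at -0.0354 to 0.0306. With the replicate block, 13, 16 and 15 members passed the study threshold, and 2.88%, 2.99% and 2.73% of all circRNAs did. In the same fits 0 members had an adjusted p under 0.05 at 3M against 6W, and 0 and 4 source genes were called. The cause of these shifts was not tested.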
